A study of Mus musculus with 48 samples.

Results

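The cerebellum of wild-type (WT) mice was compared between 6 and 3 months of age, in 6 of the 48 arrays of a study of Tia1 knockout (KO) mice. The 3 arrays labelled cerebellum, wild type and 6 month (mice 1 to 3) were set against the 3 labelled with 3 month, and all 45037 probe sets other than controls were tested. The labels give the WT mice a C57Bl/6 background, the methods name them C57BL6/J from The Jackson Laboratory, and neither gives them an engineered allele or a treatment. Housing was in ventilated cages on a 12/12 h light/dark cycle. Groups outside this pair served only for comparison: WT midbrain and WT spinal cord of the same numbered mice, and cerebellum of KO mice of the same ages, which carry a Tia1 allele without exon 4. The study killed its mice to remove the tissues, so the ages were different mice. The sources do not say whether both ages were bred or processed together, and age cannot be told apart from cohort or array handling in any result that follows.

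The cerebellar cortex receives its input through granule neurons, the most numerous neurons of the brain, and sends its output through Purkinje cells. Bergmann glia span its layers, and the choroid plexus of the fourth ventricle lies against its underside. Both ages are adult, after cerebellar development has ended and before old age. Values are log2 levels, so that a difference of 1 is a 2-fold change. A probe set, the group of short oligonucleotides that reads 1 transcript, was called where limma's moderated test over the 6 arrays gave an adjusted p under 0.05.

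Called were 36 probe sets higher (0.0799% of those tested) and 19 lower at 6 months (0.0422%). They covered 18 named genes that rose and 10 that fell, and 16 called probe sets carry no gene symbol in the annotation. At an unadjusted p under 0.05 there were 5108 probe sets. The values at the ages did not overlap for any of the 55 called probe sets, as for 18% of all probe sets, and their changes ran from 0.65 to 4.21 upward and from −0.68 to −2.15 downward. The median change over all 17097 named genes was 0.04. The rises were led by chemokine genes of chromosome 4 (Ccl21b, Ccl27a), by the amino acid transporter gene Slc7a3 and by Cox6a2, while the falls were led by Gabra2, Nnt, Wdfy1 and Fabp7. Leaving out any single 6-month array left 20 or 21 calls, and leaving out the second 3-month array left 33.

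**Figure D1:**
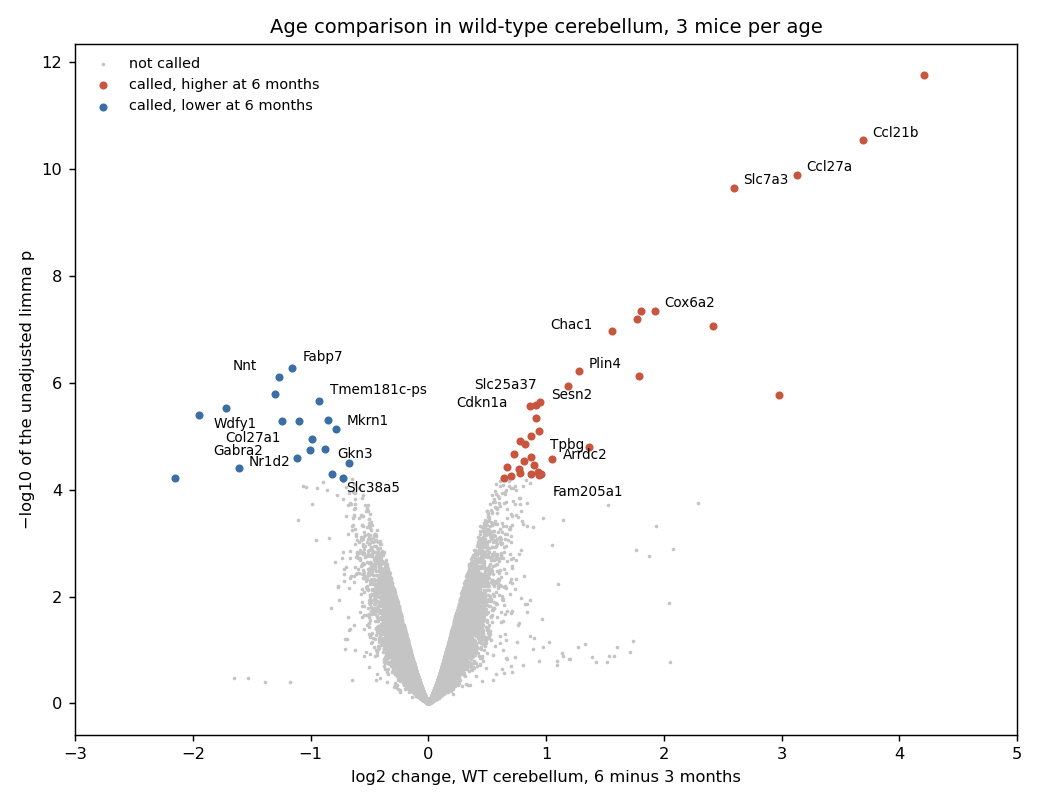
Each point is 1 of 45037 probe sets. The x axis gives the log2 change in WT cerebellum (6 minus 3 months, 3 mice per age) and the y axis −log10 of the unadjusted limma p. Red points are the 36 called higher and blue points the 19 called lower, with the 22 genes named by rule labelled. The 4 points farthest to the upper right are Ccl21b, Ccl27a, Slc7a3 and an unnamed probe set that rose by 4.21.

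Slc7a3 and a pair of genes known as targets of ATF4, the transcription factor induced when amino acids run short or proteins misfold, rose at 6 months. Slc7a3 encodes a transporter of arginine and lysine. Its level was 3.890, 3.783 and 4.002 in the 3-month mice and 6.497, 6.501 and 6.470 in the 6-month mice. The groups were far apart with little spread inside each, a rise of 2.60 ± 0.09 (SE, n = 3 against 3) or 6.05-fold (adjusted p = 2.49e-06). At 3 months the level lay below 4.22, the median of all values on the 6 arrays, so it was dim there. Chac1, an enzyme that degrades glutathione, stood at 4.60, 4.35 and 4.61 at 3 months and at 6.11, 6.18 and 5.96 at 6 months, a rise of 1.56 ± 0.11 or 2.95-fold (adjusted p = 0.000525). Sesn2, a leucine sensor that restrains mTORC1, was measured at 4.90, 4.86 and 4.75 against 5.84, 5.84 and 5.69. It rose by 0.95 ± 0.09 (adjusted p = 0.00574), and its other probe set rose by 0.93 (adjusted p = 0.0459).

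The list of endoplasmic reticulum stress genes, which holds Chac1 and Sesn2, had members on both sides of 0. Of its 20 measured members 2 were called higher and 0 lower, against 0.0994% and 0.0468% of all genes, and its median change was 0.01. At an unadjusted p under 0.05, 6 were higher and 2 lower. Without the first or second 6-month array 1 of the calls was left. Next in size were Asns, the asparagine synthetase gene (change 0.60, adjusted p = 0.0551), and Trib3, a pseudokinase gene induced by ATF4 (0.61, adjusted p = 0.0754), neither of which passed. Asns stood at 8.76, 8.59 and 8.66 at 3 months and at 9.35, 9.24 and 9.24 at 6 months. The most negative change was −0.48, for the transcription factor gene Xbp1, and did not pass. Other known ATF4 targets were mixed. Changes were 0.13 for Ddit3 and 0.44 for Cth, whose ages overlapped, and 0.23 and 0.02 for the probe sets of Slc7a11. Aldh1l2 (0.34, adjusted p = 0.279) and Ddit4 (0.33, adjusted p = 0.348) did not overlap between the ages, as for 18% of all probe sets, but did not pass. Atf4 itself rose by 0.40 by its brighter probe set without passing (adjusted p = 0.192). A probe set annotated to both Gsn and Mthfd2 was called higher (0.86, adjusted p = 0.00604), and which gene it reads was not tested.

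Promoters were read for some known ATF4 targets in that list and for Atf4. Those of Chac1, Trib3 and Asns are shown because they held a match to the letters given below. Chac1 and Sesn2 were called, and Trib3 and Asns were the next in size. The window runs from 250 bases before the transcription start to 50 after it, from RefSeq on build GRCm38.p6, and capitals mark each match to TGATGNAA on either strand. These letters are the core of the composite element that C/EBP and ATF proteins share. Among all 32817 promoter windows 3.97% hold a match. The genes read were known targets, so that share is not a like background for them. No window was available for Slc7a3.
Chac1, chr2:119350992-119351291, plus strand: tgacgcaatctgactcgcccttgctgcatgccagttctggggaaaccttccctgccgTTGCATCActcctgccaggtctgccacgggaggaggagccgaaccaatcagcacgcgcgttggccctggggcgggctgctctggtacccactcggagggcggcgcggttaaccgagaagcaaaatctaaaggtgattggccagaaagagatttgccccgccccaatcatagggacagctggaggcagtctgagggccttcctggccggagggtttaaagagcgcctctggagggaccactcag
Trib3, chr2:152344011-152344310, minus strand: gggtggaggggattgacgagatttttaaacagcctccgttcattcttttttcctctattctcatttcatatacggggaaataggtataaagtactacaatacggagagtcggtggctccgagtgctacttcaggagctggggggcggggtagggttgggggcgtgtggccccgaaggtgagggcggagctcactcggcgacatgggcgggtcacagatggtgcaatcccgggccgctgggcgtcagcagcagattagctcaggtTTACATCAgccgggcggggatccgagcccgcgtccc
Asns, chr6:7693160-7693459, minus strand: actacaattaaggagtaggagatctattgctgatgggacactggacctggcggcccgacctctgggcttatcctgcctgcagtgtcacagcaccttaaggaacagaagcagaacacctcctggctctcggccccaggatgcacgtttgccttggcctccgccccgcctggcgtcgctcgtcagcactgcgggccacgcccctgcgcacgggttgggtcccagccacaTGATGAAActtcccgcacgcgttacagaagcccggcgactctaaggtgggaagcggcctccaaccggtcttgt
Each of these 3 windows held 1 match, and the windows of Sesn2 and Atf4 held none of these letters. The matches are a description of the sequence, and no binding was measured.

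Cox6a2, the muscle-type subunit of cytochrome c oxidase, also rose. It read 2.99, 3.38 and 3.09 at 3 months and 5.04, 4.96 and 5.22 at 6 months, a rise of 1.92 ± 0.12 or 3.79-fold (adjusted p = 0.000343). At 3 months it was dim, at the level of the muscle markers. Skeletal muscle markers were low on all 6 arrays, with a mean level of 3.05 to 3.14 over 12 genes. KO cerebellum arrays read 4.46 to 4.90 for Cox6a2. Its call was made in 6 of 6 fits with 1 array left out. The call was lost when the 24 WT arrays (adjusted p = 0.213) or all 48 arrays (adjusted p = 0.145) shared 1 estimate of the spread. Among those arrays, the third 3-month WT spinal cord array read 7.63 for Cox6a2, against 3.54 and 3.45 on the others of its group. The part of that array in the lost call was not tested. Of the 38 measured respiratory chain genes none was called, and their median change was −0.06. Smaller rises were called for Tpbg, a membrane glycoprotein that dampens Wnt signalling (0.94), Nrros, which holds latent TGF-beta on microglia and other myeloid cells (0.90), Phyhd1 (0.87), the predicted gene Gm19439 (0.87), Rell1 (0.82 and 0.77 by its called probe sets) and Serping1, the inhibitor of the first complement component (0.78).

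Targets of the glucocorticoid receptor were mostly higher at 6 months. Of 20 measured members 19 had a change above 0, as had 10271 of all 17097 genes, and 1 changed by −0.70. Called higher were 3 and called lower 0, against 0.0994% and 0.0468% of all genes. At an unadjusted p under 0.05, 12 were higher, as were 8.35% of all genes. The median change of the list was 0.44. It was chosen with earlier results of these data known, so these counts are a description. Plin4 encodes a coat protein of lipid droplets. It was at 4.14, 4.08 and 4.13 at 3 months and at 5.20, 5.44 and 5.56 at 6 months, a rise of 1.28 ± 0.11 or 2.43-fold (adjusted p = 0.00249). Arrdc2, an arrestin domain gene, went from 4.46, 4.60 and 4.92 to 5.92, 5.63 and 5.59, a rise of 1.05 ± 0.14 (adjusted p = 0.0310). Cdkn1a encodes the cell cycle inhibitor p21 and rose by 0.91 with both called probe sets (adjusted p = 0.00900 and 0.00604). Sult1a1 (0.86, adjusted p = 0.0549), Zbtb16 (0.72, adjusted p = 0.0551) and the receptor chaperone gene Fkbp5 (0.72, adjusted p = 0.0729) were next and did not pass. Without the second 3-month array or any single 6-month array only 1 of the 3 calls was left, while 11 to 14 members were still higher at an unadjusted p under 0.05.

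The mean level of the glucocorticoid list was 6.60, 6.79 and 6.87 in the 3-month mice and 7.20, 7.21 and 7.21 in the 6-month mice. The list also stood higher at 6 months in WT midbrain (median change 0.27) and WT spinal cord (0.24), from arrays of the same mice. Its median was 0.07 in KO cerebellum. Among its called members, changes in KO cerebellum were 0.97 for Plin4, 0.28 and 0.37 for Cdkn1a and 0.15 for Arrdc2. No difference from the WT change was called for these genes. Glucocorticoid and clock genes follow the time of day, and the hour of tissue removal is not given in the sources used here. Clock genes gave no call by their brightest probe sets (median change 0.01 over 19 genes). Read by the mean of each gene's probe sets, 2 of them were called lower, as were 17 of all 17097 genes. Dbp, a clock output gene, had the largest change by brightest probe set (−0.50, adjusted p = 0.0989). It passed in the fit over 24 WT arrays (adjusted p = 0.0258), and it changed by −0.41 in WT midbrain and −0.33 in WT spinal cord. The probe sets of Nr1d2, which encodes the clock repressor REV-ERB beta, disagreed. One fell from 6.36, 6.10 and 5.99 to 5.32, 5.13 and 4.99 (change −1.005 ± 0.13, adjusted p = 0.0233), whereas the brighter one lay between 10.64 and 11.13 on all 6 arrays and changed by 0.001.

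**Figure D2:**
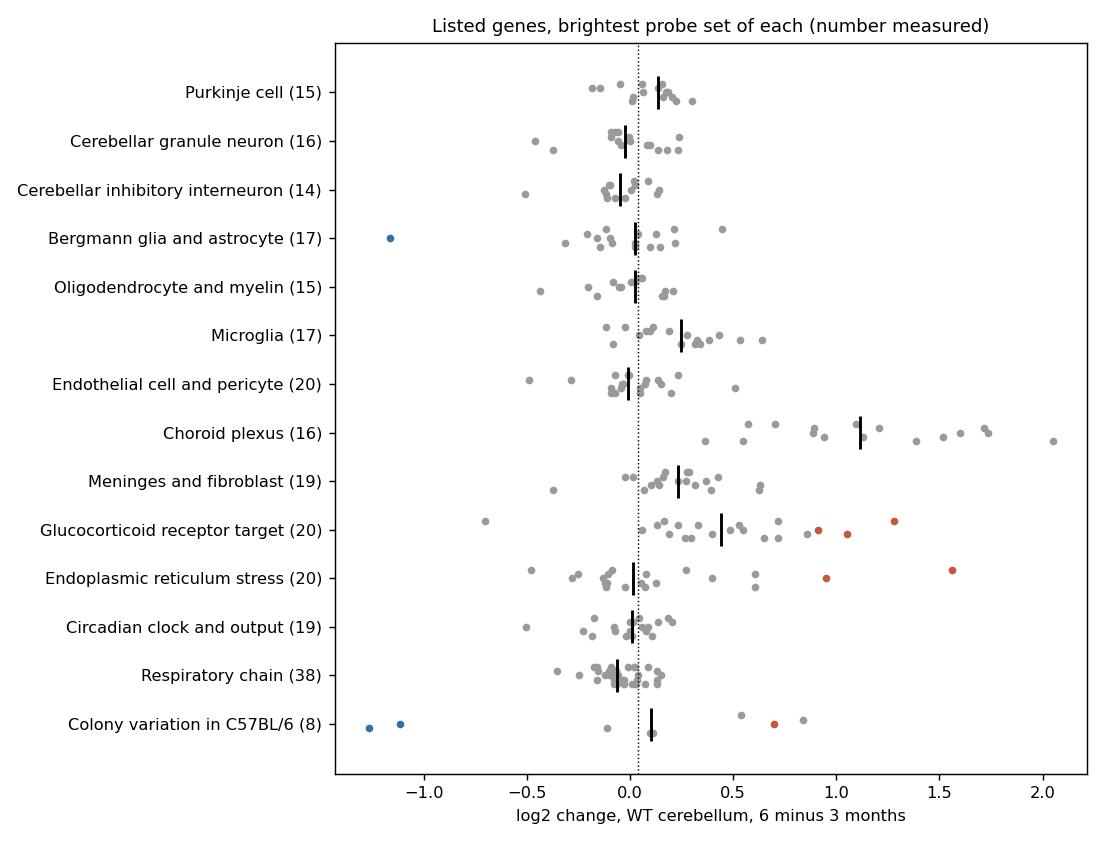
Each point is 1 gene, read by its brightest probe set, and the x axis gives the log2 change in WT cerebellum (6 minus 3 months). Rows are the lists with the number of genes measured, black bars are list medians, the dotted line is the median of all genes (0.04), and red and blue points were called higher and lower. Glucocorticoid receptor targets lie mostly to the right with 3 called, and choroid plexus markers lie far to the right with 0 called.

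Chemokine genes that lie side by side on chromosome 4 gave the largest named rises. Ccl21b, a ligand of the receptor CCR7 that guides lymphocytes and dendritic cells, was at 3.35, 3.45 and 3.40 at 3 months and at 7.16, 6.90 and 7.22 at 6 months. It rose by 3.69 ± 0.11 or 12.9-fold (adjusted p = 6.43e-07). Ccl27a, a ligand of CCR10 best known from skin, went from 3.43, 3.37 and 3.20 to 6.61, 6.38 and 6.41 by 1 probe set, a rise of 3.13 ± 0.11 or 8.77-fold (adjusted p = 1.90e-06), and rose by 2.42 by another (adjusted p = 0.000481). Both genes were dim at 3 months, below the median of all values, so their folds depend on the background of the array. The brighter Ccl27a probe sets were not called, with changes of 0.12 and −0.11. In the order of genes on the array, Ccl27a and Ccl21b are neighbours and Fam205a1, which rose by 0.96 (adjusted p = 0.0464), follows with 2 genes between. One of those is Ccl19, another CCR7 ligand (0.73, adjusted p = 0.0551). No call came from the 3 array genes on either side of this stretch. The genome holds near-identical copies of Ccl21 and Ccl27 genes, which these probe sets may not separate. Chromosome 4 held 5 of the 28 called genes, 17.9% against 6.08% of array genes.

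Among 8 measured genes known to vary between C57BL/6 colonies and substrains, 3 were called. Of these 1 was higher and 2 were lower, against 0.0994% and 0.0468% of all genes. Without the third 3-month array 2 were called, and without any other single array 1. The list was chosen with earlier results of these data known, so these counts are a description. Nnt encodes the mitochondrial enzyme that makes NADPH from the proton gradient and is deleted in part in C57BL/6J. It stood at 7.77, 7.46 and 7.47 at 3 months and at 6.201, 6.35 and 6.35 at 6 months, a fall of 1.27 ± 0.11 on the log2 scale (change −1.27, adjusted p = 0.00273). Its other probe set changed by −1.07 and did not pass (adjusted p = 0.0551). Wdfy1, a phosphoinositide-binding protein of early endosomes, fell by 1.24 (adjusted p = 0.00901) and 1.11 (adjusted p = 0.0306) by its called probe sets. Entpd4, a nucleotidase of the Golgi and lysosomes, rose from 7.10, 7.10 and 7.08 to 7.95, 7.79 and 7.64 (change 0.70 ± 0.10, adjusted p = 0.0484), a call made in 0 of 6 fits with 1 array left out. Slc25a37, which encodes the mitochondrial iron importer mitoferrin, is next to Entpd4 on chromosome 14. One of its probe sets rose by 1.19 ± 0.11 (adjusted p = 0.00362), and its other probe sets changed by −0.18 and 0.59 without passing. The insulin-degrading enzyme gene Ide (0.54, adjusted p = 0.0618) and its chromosomal neighbour Fgfbp3 (0.84, adjusted p = 0.0736) were higher but did not pass.

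Gabra2 encodes the alpha2 subunit of the GABA-A receptor and is reduced in C57BL/6J by a small deletion. It was lower at 6 months by both of its probe sets. The brighter one read 7.496, 7.51 and 7.72 against 6.51, 6.16 and 6.14, a change of −1.30 ± 0.12 (adjusted p = 0.00475), and the other changed by −1.61 (adjusted p = 0.0397). None of the 14 other measured GABA and glycine receptor genes was called, and Gabra6, the granule neuron subunit, changed by 0.10.

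Fabp7 encodes the brain fatty acid binding protein of Bergmann glia and other astrocytes and fell by 2.24-fold. It stood at 9.50, 9.42 and 9.32 at 3 months and at 8.35, 8.16 and 8.24 at 6 months (change −1.16 ± 0.10, adjusted p = 0.00241). It was the 1 called member of 17 measured Bergmann glia and astrocyte genes, whose median change was 0.02. Col27a1, a fibrillar collagen gene, fell by both probe sets (changes −0.99 and −0.86, adjusted p = 0.0166 and 0.00901), and none of the 18 other measured genes of collagen and basement membrane was called. Slc38a5, a glutamine transporter of glia and vessels, changed by −0.82 (adjusted p = 0.0464), Gkn3 by −0.88 (adjusted p = 0.0228), the ubiquitin ligase gene Mkrn1 by −0.79 (adjusted p = 0.0121) and the pseudogene Tmem181c-ps by −0.93 (adjusted p = 0.00574).

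The called probe sets without a single gene symbol were 14 that rose, by 0.65 to 4.21, and 6 that fell, by changes of −0.68 to −2.15. The largest change of all was among them, in a probe set that read 4.52, 4.46 and 4.64 at 3 months and 8.74, 8.77 and 8.73 at 6 months. It rose by 4.21 ± 0.09 or 18.5-fold (adjusted p = 7.89e-08), and its gene is not named here.

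Most of the called changes were also seen in other tissues of the WT mice. In WT midbrain, fitted alone, 41 of the 55 called probe sets moved the same way at an unadjusted p under 0.05, against 9.24% of all probe sets. In WT spinal cord 35 did, against 5.96%, and 32 did so in both tissues. These arrays came from the same mice, so they are not new animals. Nnt changed by −1.03 in midbrain and −1.14 in spinal cord, Wdfy1 by −1.43 and −1.40, Plin4 by 1.35 and 1.21, and Entpd4 by 0.89 and 0.91. In the 3-month mice Wdfy1 was highest in mouse 2 in all 3 tissues, at 8.36, 8.81 and 8.46 by its called and brightest probe set. Outside this shared set, 8 called probe sets passed in neither tissue, among them those of Slc7a3, Sesn2, Nrros and Serping1 and 1 of Rell1.

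**Figure D3:**
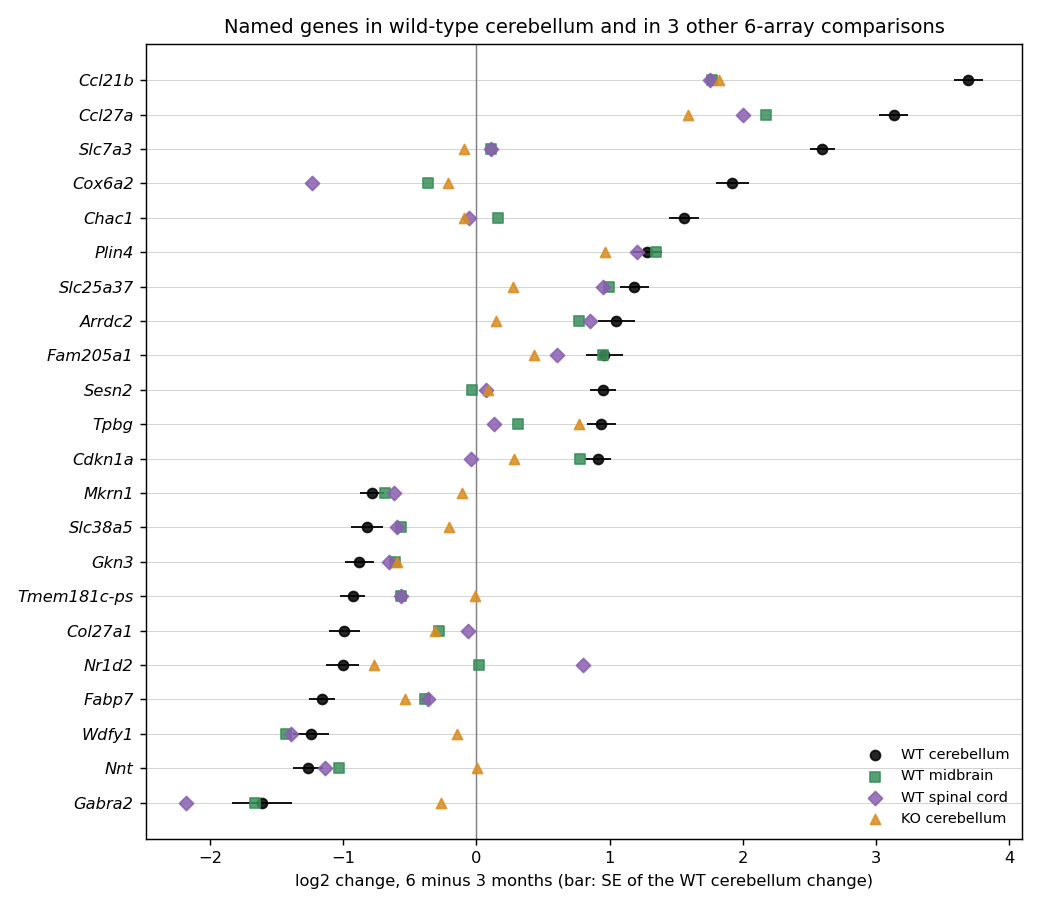
The x axis gives the log2 change from 3 to 6 months for each of the 22 genes named by rule, in WT cerebellum (black, with SE) and in WT midbrain, WT spinal cord and KO cerebellum (3 mice per age each). Nnt, Wdfy1 and Gabra2 were lower and Plin4 was higher in the 3 WT tissues, whereas Slc7a3, Chac1 and Sesn2 rose in WT cerebellum and stayed between −0.09 and 0.17 elsewhere.

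In KO cerebellum, 23 of the 55 moved the same way at an unadjusted p under 0.05, against 6.9% of all probe sets. The WT ages were also set beside the KO arrays. For 35 of the 55, only the 3-month WT mice lay outside the range of the other 9 cerebellum arrays. For 11 only the 6-month WT mice did, for 4 both did and for 5 neither. In all, the 3-month WT mice lay outside that range for 39 and the 6-month WT mice for 15. Over all probe sets the shares were 4.01% for the 3-month and 1.85% for the 6-month WT mice. The 55 were picked for a difference between the WT ages, so these shares are not a like background for them. Slc7a3 was at 6.33, 6.49 and 6.37 in the 3-month KO mice and at 6.33, 6.28 and 6.31 in the 6-month KO mice, close to the 6-month WT mice. Chac1 was at 5.83 to 6.21 in the 6 KO mice and Sesn2 at 5.33 to 5.80, so that for all 3 genes the 3-month WT mice were low against every other group. Nnt was at 6.32 to 6.502 in the KO mice, as in the 6-month WT mice, and Gabra2 and Entpd4 had the same layout.

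Wdfy1 differed, since its 6-month WT mice were the low group (4.77, 4.78 and 4.87 by its dimmer called probe set, against 5.80 to 6.62 on the other 9 arrays). Ccl27a was split among the 3-month KO mice. It read 3.28, 5.78 and 3.70 in them and 5.82 to 5.86 at 6 months, and Ccl21b read 2.97, 5.64 and 3.10, so that 1 KO mouse of 3 months had the level of the older mice for both genes.

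**Figure D4:**
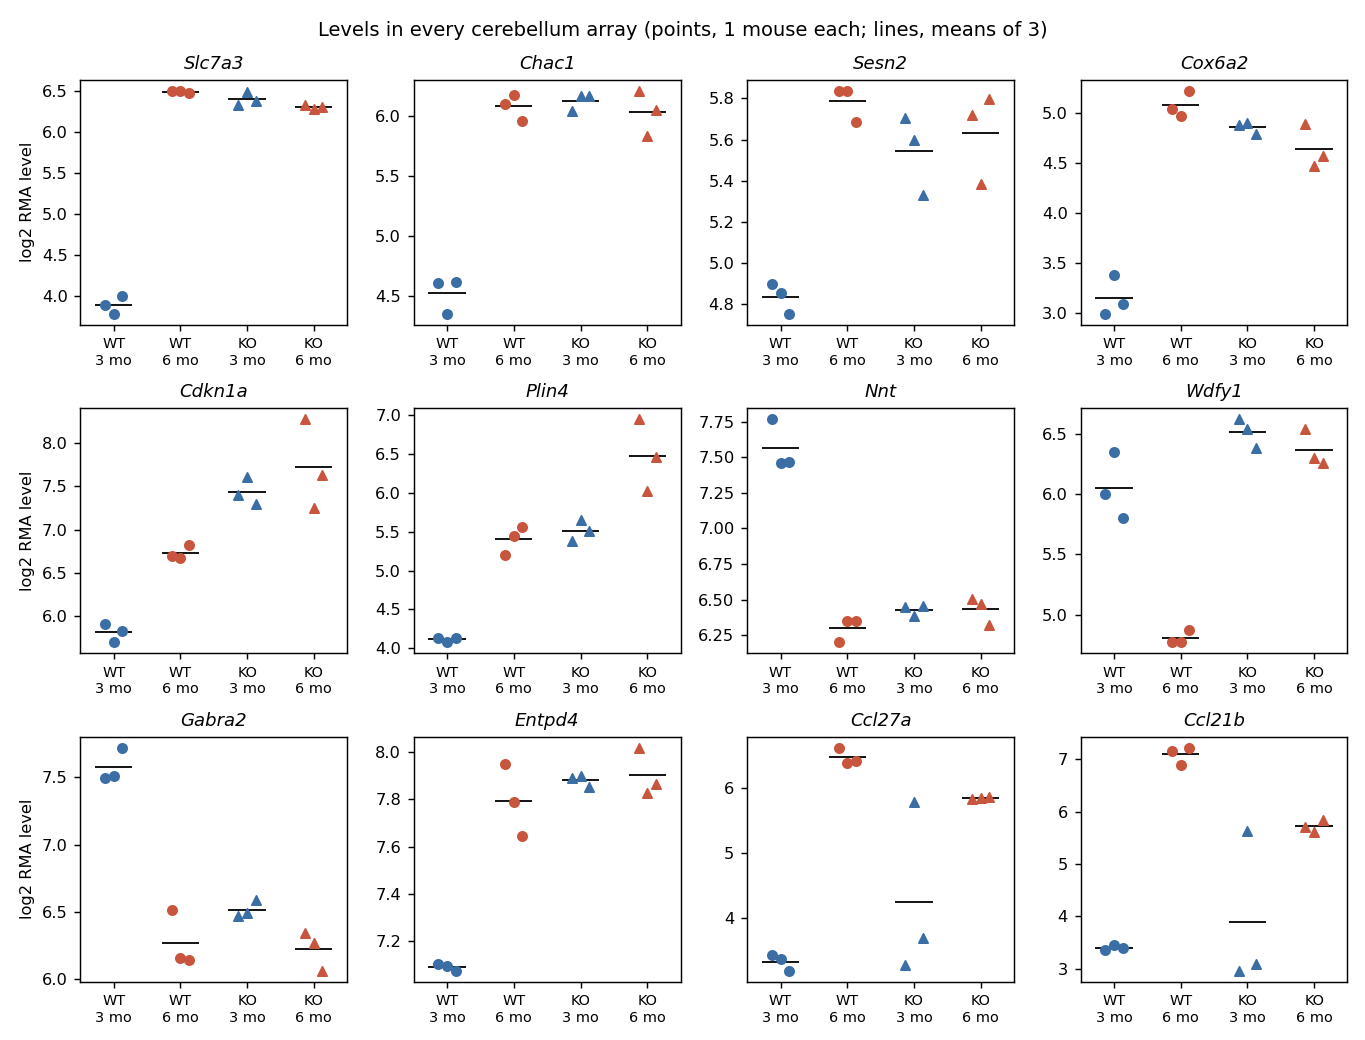
Each panel shows the log2 level of 1 gene on the y axis in all 12 cerebellum arrays, with 1 point per mouse and a line at the mean of 3 (circles, WT; triangles, KO; blue, 3 months; red, 6 months; panels differ in scale). Slc7a3, Chac1, Sesn2 and Nnt set the 3-month WT mice apart from the other 3 groups, Wdfy1 sets the 6-month WT mice apart, and Ccl27a and Ccl21b are split among the 3-month KO mice.

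The difference between the age changes was tested directly. Against KO cerebellum 8 probe sets were called (0.0178%). The WT change exceeded the KO change by 2.69 ± 0.12 for Slc7a3 (adjusted p = 6.48e-08), by 2.137 ± 0.17 for Cox6a2 (adjusted p = 0.000108, but 0.863 over 48 arrays), by 1.65 ± 0.16 for Chac1 (adjusted p = 0.000514) and by 0.91 ± 0.13 for Copz2, a coat protein gene of Golgi vesicles (adjusted p = 0.0385). For Nnt it was lower by 1.27 ± 0.14 (difference −1.27, adjusted p = 0.00229). The called difference of 1.70 for Meg3, a long noncoding RNA, came from the KO side, since 1 of its probe sets changed by −1.76 in KO and by −0.07 in WT cerebellum.

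Against WT midbrain 24 probe sets were called (0.0533%) and against WT spinal cord 224 (0.497%). The spinal cord count fell to 20 over the 12 arrays of the groups compared and to 42 over 48 arrays. These fits treated tissues of the same mouse as independent. With the mouse as a block, 22 were called against midbrain and 125 against spinal cord. In the fits without a block Slc7a3 led both comparisons, with differences of 2.49 against each tissue (adjusted p = 1.04e-09 and 1.01e-09). Its level was 7.62 to 7.86 in midbrain and 5.30 to 5.57 in spinal cord over both ages. Chac1 differed by 1.39 from midbrain (adjusted p = 0.000380) and by 1.61 from spinal cord (adjusted p = 4.22e-05), Sesn2 by 0.98 from midbrain (adjusted p = 0.00656), Rell1 by 1.00 (adjusted p = 0.00656) and Col27a1 by −0.79 (adjusted p = 0.00954). Ccl21b was higher at 6 months in all 3 tissues, but by 1.93 more than in midbrain (adjusted p = 0.00163) and 1.94 more than in spinal cord (adjusted p = 0.000972). Over 48 arrays the midbrain differences of Ccl21b (adjusted p = 0.280), Sesn2 (adjusted p = 0.277) and Col27a1 (adjusted p = 0.236) and the spinal cord difference of Ccl21b (adjusted p = 0.130) did not pass. Nr1d2 had the largest negative difference from spinal cord, at −1.80 (adjusted p = 0.00782), by the probe set that its brighter one did not follow. The third 3-month WT spinal cord array carried skeletal muscle markers at a mean level of 9.67, against 3.05 to 4.29 on the other 5, and 174 differences were called without it.

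Apart from Fabp7, markers of cerebellar cells gave few changes. None was called among 15 measured genes of Purkinje cells (median change 0.13), 16 of granule neurons (−0.02), 14 of inhibitory interneurons (−0.05), 15 of oligodendrocytes and myelin (0.02) and 20 of endothelial cells and pericytes (−0.01). On the 6 arrays the mean level of the Purkinje list was 10.27 to 10.42 and that of the granule neuron list 9.14 to 9.24. In bulk tissue, fewer cells of a type and less RNA per cell cannot be told apart. Of 17 microglial markers none was called, and their median change was 0.25. At an unadjusted p under 0.05, 7 were higher and 0 lower, against 8.35% and 3.43% of all genes. Laptm5, a lysosomal membrane protein of blood-derived cells, changed by 0.64 (adjusted p = 0.0734) and the protease gene Ctss by 0.53 (adjusted p = 0.126), whereas the microglia genes Tmem119 (−0.12) and P2ry12 (0.10) changed little. In the fit over 24 WT arrays 3 of these 17 were called higher, as were 0.497% of all genes. Markers of meninges and fibroblasts had 17 of 19 members above 0, as had 10271 of all 17097 genes. At an unadjusted p under 0.05, 6 were higher and 1 lower, against 8.35% and 3.43% of all genes. Of these markers 0 were called, and their median change was 0.23. Their mean level was 6.17, 6.32 and 5.94 at 3 months and 6.22, 6.48 and 6.39 at 6 months, and their part in the rises was not tested.

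Choroid plexus markers varied between mice of 1 age. All 16 measured markers had a change above 0, as had 10271 of all 17097 genes. Their median change was 1.11, yet none was called. Ttr, the thyroxine carrier that the choroid plexus makes in great amounts, read 12.52, 12.98 and 6.44 at 3 months and 12.15, 12.95 and 12.99 at 6 months. The third 3-month mouse was low for Ttr, and its mean level over the list was 3.84 against 5.52 to 7.13 on the other 5 arrays. Without that array the median was 0.37 and 38 probe sets were called, 35 of them among the 55.

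**Figure D5:**
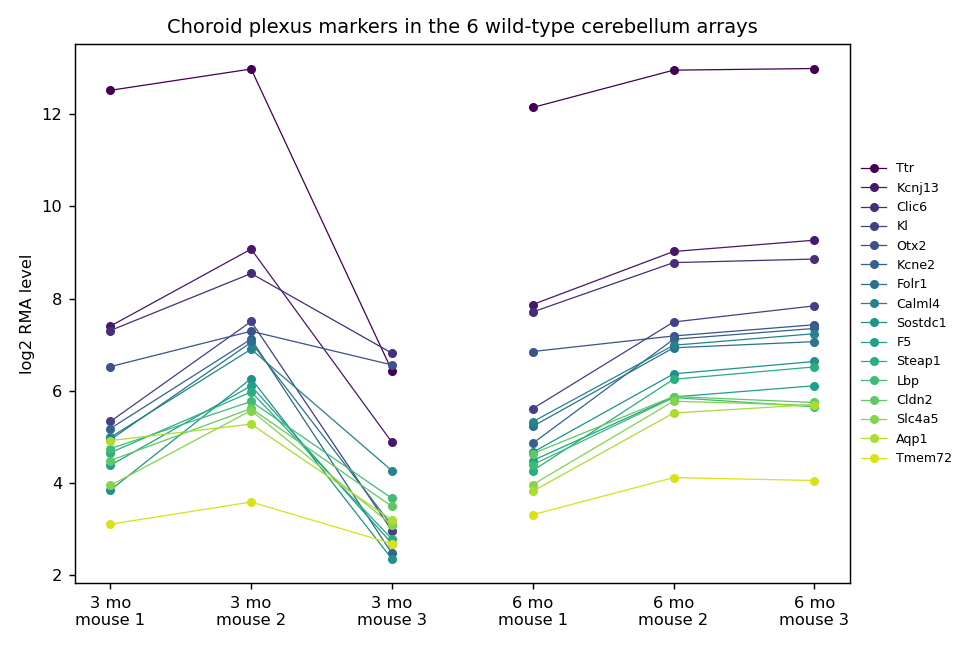
Each line is 1 of 16 choroid plexus markers, with the log2 level on the y axis and the 6 WT cerebellum arrays on the x axis (3 mice per age). Ttr and most other markers drop in the third 3-month mouse, and most are lower in the first mouse of each age than in the second.

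Of 32 lists with 541 measured genes, 5 held a called member. The other lists, choroid plexus aside, had medians between −0.08 and 0.25, among them cytosolic heat shock genes (0.05), immediate early genes (0.01), cell cycle genes (−0.07), interferon and antigen presentation genes (0.09) and markers of brain ageing and reactive glia (0.19).

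Checks of the arrays gave the following. Exon 4 of Tia1, which the KO allele lacks, is read by 1 probe set, which lay between 8.17 and 8.42 on the 6 arrays and was not called. Y chromosome genes were present and Xist was near 3 on all 6 arrays, as in males. The median level was 4.10 on the first 3-month array and 4.23 to 4.27 on the other 5, and this array had the lowest correlations with the rest (0.992 to 0.994, against up to 0.996). Without it 54 probe sets were called, of which 37 were among the 55. The 3′ minus 5′ difference of the Gapdh control probe sets was −0.04, 0.26 and 0.22 at 3 months and 0.32 to 0.37 at 6 months, and that of Actb was 0.88 to 1.00 and 1.03 to 1.14. The Actb values did not overlap between the ages, nor did those of Gapdh, and their part in the results was not tested.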

How the data were processed

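RNA of mouse tissues was hybridised to Affymetrix mouse genome PM array plates. The authors deposited 1 table of log2 expression values for the 48 arrays, background-corrected, quantile-normalized and summarised by robust multi-array average (RMA) in R 2.14.0, per the submitters' notes and methods. RMA over all arrays ties each value to the other tissues. Without 104 control probe sets, 45037 of its 45141 rows were tested. GEO's platform annotation gives 28898 tested probe sets 1 symbol, 551 several and 15588 none.

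Groups came from the labels. limma 3.58.1 in R 4.3.3 fitted group means on the deposited values with Benjamini-Hochberg adjustment over all 45037 probe sets. Differences between age changes used 12 cerebellum arrays for KO and the WT arrays of cerebellum, midbrain and spinal cord for the tissues. An exact permutation test of 3 against 3 cannot give p below 0.1, so none was used. Array number limits precision, and nothing says that replicates were processed separately, so p-values measure the spread between these samples.

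Genes were read by their brightest probe set in lists. Named by rule were up to 12 called genes in each direction with groups that did not overlap, and up to 5 differences in each direction. Other called genes were named after their values were seen. The comparison, lists and tests were chosen with earlier results of these data known, so counts over the lists are not independent support. On simulated data for 45037 probe sets, the 6-array comparison recovered 83% of changes of log2 size 1 and 99% of size 2. There were 8 false calls. The simulated noise was independent between probe sets and held no effect shared over an array. How far these figures carry over to the real arrays was not tested. Arrays of equal mouse number at both ages came from different mice. Correlations of their deviations were 0.0557, 0.0537 and 0.0841, against −0.0982 to 0.0402 for unequal numbers. Whether equal numbers shared any handling was not tested. Alternatives covered the arrays sharing the spread, normalization, prior, dim probe sets, thresholds, a replicate block and each array left out. The block was the mouse number across ages, or the mouse itself where WT tissues were compared. Liver was not used in named comparisons.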

Additional observations from a re-analysis of the deposited data

Results flagged for a closer look

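The age change in WT cerebellum differed from that in another group for these probe sets, by limma's test of the difference itself. Against KO cerebellum the difference was 2.69 for Slc7a3, 2.137 for Cox6a2, 1.70 for Meg3, 1.65 for Chac1, 0.91 for Copz2 and −1.27 for Nnt. Against WT midbrain it was 2.49 for Slc7a3, 1.93 for Ccl21b, 1.39 for Chac1, 1.00 for Rell1 and 0.98 for Sesn2, and −1.08 for the glutamate receptor gene Grm8, −0.98 for the splicing factor gene Rbm25 and −0.79 for Col27a1. Against WT spinal cord it was 2.49 for Slc7a3, 1.94 for Ccl21b, 1.61 for Chac1, 1.45 for Tspan18 and 1.14 for Mex3a, and −1.80 for Nr1d2, −1.41 for Eif2s3x, −1.37 for Etnk1, −1.23 for Rnf14 and −1.14 for Tomm70a.

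Meg3, Copz2, Grm8, Rbm25, Tspan18, Mex3a, Eif2s3x, Etnk1, Rnf14 and Tomm70a were not called for age in WT cerebellum itself. For Eif2s3x and Etnk1 the difference from spinal cord depended on the probe set. Brighter probe sets of Eif2s3x differed by 0.03 and −0.11 and the brightest of Etnk1 by −0.08, without a call. Another Etnk1 probe set was called, at −0.84.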

How the results depend on the processing

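None of the 55 called probe sets changed sign under an alternative. Other probe sets named here were not checked for this. Of the 55 calls 14 were made under every alternative fitted to all probe sets, and 16 with each array left out. The count was 245 (161 higher, 84 lower) over 24 WT arrays, 509 (331 and 178) over 48 arrays, 303 (183 and 120) over 12 cerebellum arrays, 95 (54 and 41) after a new quantile normalization or median centring, 137 (93 and 44) with a trended and robust prior, and 26 (17 and 9) at an adjusted p under 0.01. Leaving out 1 array gave 20 to 54 calls (14 to 28 higher, 6 to 26 lower), with 33 without the second 3-month array and 21, 20 and 20 without each 6-month array (mice 1, 2 and 3). With the mouse number as a block 41 were called, 35 of them among the 55. Differences from KO cerebellum numbered 26 over 48 arrays, 27 with the trended prior, 5 at 0.01 and 5 to 11 with 1 array left out. Those from midbrain numbered 12, 49, 8 and 16 to 35. Those from spinal cord numbered 42, 443, 13 and 51 to 275, with 20 over 12 arrays and 125 with the mouse as a block. Without the muscle-marked array, an alternative chosen after seeing the data, they numbered 174. The difference for Copz2 was called in 1 of 9 alternatives, that for Rbm25 in 3 of 10 and that for Etnk1 in 3 of 11. The causes were not tested. Dim probe sets limit what can be called.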
